A study of Arabidopsis thaliana with 24 samples.

Results

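Polysome loading in darkness was measured in Col-0 Arabidopsis seedlings as the signal of polysome-bound RNA minus the signal of total RNA from the same replicate number. Of the 24 Affymetrix ATH1 arrays of the study, 6 carry this comparison, 3 of polysome-bound RNA and 3 of total RNA. Every probe set except the AFFX controls was a member, 22746 of 22810. The dark Col-0 group consisted of the aerial parts of 4-d-old etiolated control seedlings that received no light. The other groups were Col-0 after 4 h of white light, and the mutant dcp5-1 in darkness and after 4 h of white light, each of 4-d-old etiolated seedlings with 3 biological replicates and both RNA fractions. DCP5 is a component of processing bodies, cytoplasmic granules of mRNA and decay proteins. The labels do not say how many seedlings made up a replicate.

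An mRNA that is being translated usually carries several ribosomes, and such polysomes sediment faster than free mRNA, so the polysomal share of a transcript is a common proxy for how actively it is translated. Etiolated seedlings live on seed reserves, elongate their hypocotyl and keep their plastids as etioplasts, which lack photosynthetic membranes until light arrives. Translation in these cells goes on in 3 compartments. Cytosolic ribosomes read nuclear transcripts, while plastids and mitochondria read their own transcripts on bacterial-type ribosomes. Because the arrays measured bulk tissue, fewer cells of a type and less RNA per cell cannot be told apart, nor can weak loading in every cell from absent loading in some of them.

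Levels below are log2 signals relative to the median of the same array, and loading is the polysomal minus the total level, so a loading of 0 means the loading of the typical transcript. As deposited, the median of the polysomal arrays lay below that of their total-RNA partners by -2.93, -1.78 and -1.94. Centring removes this shift, so the values compare transcripts with each other and give no absolute loading. The polysomal arrays also differed from the total-RNA arrays in the control probe sets for RNA integrity. For actin, whose transcript is probed at 3 positions, loading was 0.56 ± 0.18 at the 3′ end, -0.92 ± 0.13 in the middle and -2.40 ± 0.19 at the 5′ end (SD, n = 3). The corresponding loadings were 0.02 ± 0.11 at the 3′ end and -1.29 ± 0.27 at the 5′ end for GAPDH, and 0.49 ± 0.11 and -0.38 ± 0.11 for ubiquitin. A single transcript therefore gave different loading values from probe sets at different positions, and the part of probe position in the gene values was not tested.

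The labelled tissue was checked by its markers. PORB, a protochlorophyllide reductase listed as a marker of dark-grown shoots, had levels of 6.44, 6.10 and 6.11 on the total-RNA arrays. On the polysomal arrays the levels were 6.36, 6.01 and 6.13. They were not compared with those of the light groups, so PORB did not set dark-grown apart from lit seedlings. PORA and PHYA were not analysed here, nor were any markers of seed remnants. Of the listed markers of light-grown leaves, 3 were tested, LHCB4.1, LHCB4.2 and LHCB4.3. Their median level in total RNA was 5.17, also far above the array median, so they did not mark the seedlings as dark-grown. The root hair gene EXPA18 stayed near -2 in total RNA, at -2.08, -2.05 and -1.99, and EXPA7 fell below the filter on dim probe sets. Of the root peroxidases, AT5G17820 had levels from -0.12 to 0.84 in total RNA and AT4G26010 from -5.21 to -1.30, and these 3 root genes were not called, with loadings of 0.25, -0.52 and 0.38.

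Of 17059 probe sets that passed the filter on dim signals, limma called 2775 higher on polysomes than in total RNA (16.3%) and 1926 lower (11.3%) at an adjusted p under 0.05. At least 2-fold differences were called for 384 higher (2.25%) and 445 lower probe sets (2.61%). The range of loading was narrow: the 5th percentile was -0.83, the quartiles -0.27 and 0.36, and the 95th percentile 0.84, around a median of 0.05. All 3 pairs lay on the called side of 0 for 2745 of the higher and 1906 of the lower probe sets. In the brightest 10% of probe sets 36.1% were called higher and 12.3% lower, with a median loading of 0.19, and in the dimmest 10% the shares were 1.47% and 2.93%, with a median of -0.00.

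**Figure D1:**
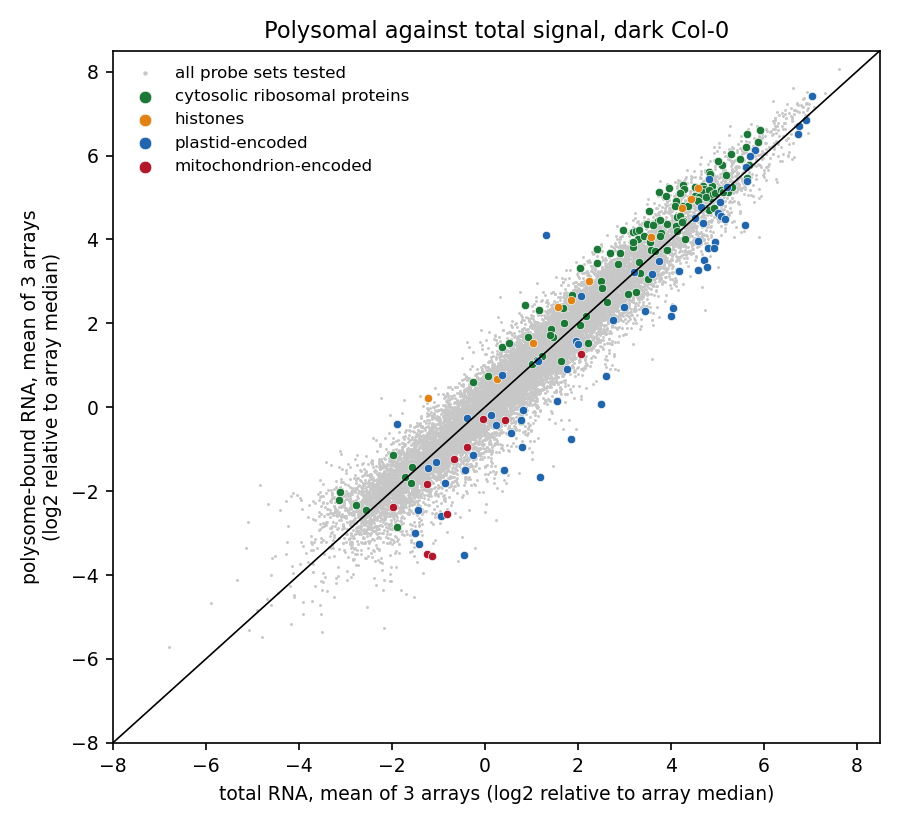
Mean level in polysome-bound RNA (vertical axis) against total RNA (horizontal axis) for each probe set tested in dark Col-0, as log2 relative to the array median, n = 3 arrays each; the line marks equal levels. Cytosolic ribosomal protein genes (green) and histone genes (orange) lie mostly above the line, and plastid-encoded (blue) and mitochondrion-encoded genes (red) mostly below it.

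The same direction was seen in the other groups. Their arrays did not enter the loading values of dark Col-0, but they shared in the spread, the trend and the filter behind the calls. Of the probe sets called higher in dark Col-0, 98.2% were also above 0 in light Col-0, 98.4% in dark dcp5-1 and 97.8% in light dcp5-1. For those called lower the shares below 0 were 95.6%, 98.4% and 95.1%. Across the 17059 probe sets, which are not independent replicates, the mean loading of dark Col-0 correlated with that of the other groups. The values were r = 0.74, 0.77 and 0.72 in the same order. Single dark Col-0 pairs correlated with each other at r = 0.46 to 0.58 and with single pairs of the other groups at r = 0.38 to 0.66. These groups share no array, but all share the array design and its probes, and the fractions differed in the control ratios in every group. The log2 ratio of 3′ to 5′ actin signal had means of 4.23 to 5.18 on the polysomal arrays of the 4 groups and of 1.41 to 1.87 on their total-RNA arrays. Its part in the shared direction was not tested.

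Genes of the cytosolic ribosome were well loaded in darkness. Of 48 genes on the array that were listed for the 40S subunit, 43 were tested, 24 were called higher and 2 lower, with a median loading of 0.44. Of 85 listed for the 60S subunit, 80 were tested, 42 were called higher and 3 lower, with a median of 0.39. The medians of the 3 pairs were 0.32, 0.37 and 0.54 for the 40S list and 0.28, 0.45 and 0.61 for the 60S list. These shares called higher, 55.8% and 52.5%, compare with 16.3% of all probe sets and 36.1% of the brightest 10% of them. Both lists were bright, with median levels of 3.52 and 3.77 in total RNA. With quantile normalisation their medians were 0.28 and 0.27, with 18 and 37 genes called higher and 6 and 5 lower. The part of signal level in these shares was not tested.

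AT4G34555 of the 40S list had levels of 0.72, 1.02 and 0.85 in total RNA and 2.15, 2.36 and 2.84 on polysomes. Its loading was 1.59 ± 0.15 (SE, 3 pairs) (adjusted p = 9.0e-07). All polysomal arrays lay above all total-RNA arrays, as they also did for AT3G53890, at 3.81, 4.00 and 4.07 against 4.95, 5.16 and 5.55, with a loading of 1.26 ± 0.13 (adjusted p = 2.6e-06). Among 60S genes, AT3G06700 had levels of 3.62, 4.07 and 3.57 in total RNA and 4.97, 5.29 and 5.17 on polysomes, a loading of 1.39 ± 0.14 (adjusted p = 1.9e-06). AT2G21580 and AT5G47930 of the 40S list followed at 1.24 and 1.03, and AT1G18540, AT3G16080 and AT3G60245 of the 60S list at 1.15, 1.15 and 0.87. Members of the same subunit did not move as a block: the 40S list spanned -0.52 to 1.59 and the 60S list -1.09 to 1.39.

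The 5 ribosomal protein genes called lower, named after their values were seen, were AT5G07090 and AT3G04920 of the 40S list, at -0.52 and -0.46, and AT2G40010, AT4G10450 and AT3G11250 of the 60S list, at -1.09, -0.69 and -0.54. AT2G40010 had levels of 1.04, 0.71 and 0.57 in total RNA and -0.22, -0.46 and -0.27 on polysomes, with no overlap. The calls of AT5G07090 (without replicate 1), AT3G04920 (without 1 or 3) and AT3G11250 (without 2) ended, with adjusted p up to 0.10. In the other groups the list medians were 0.60 and 0.65 in light Col-0, 0.39 and 0.36 in dark dcp5-1, and 0.59 and 0.53 in light dcp5-1, for the 40S and 60S lists. With the replicate numbers left out of the fit, 14 of the 40S and 23 of the 60S genes were called higher, and without replicate 3 the numbers were 16 and 31.

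**Figure D2:**
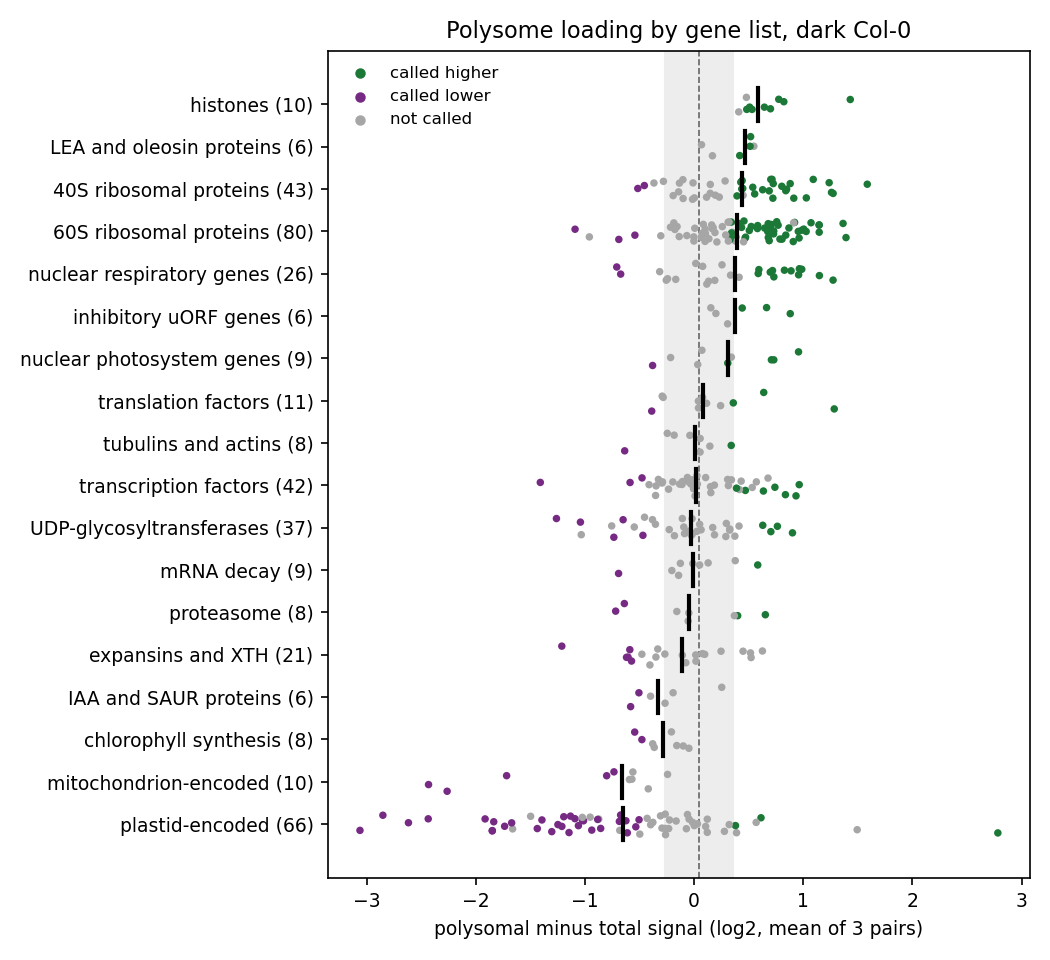
Loading (horizontal axis, log2, mean of 3 pairs) of each tested member of 18 gene lists in dark Col-0, with the number tested in brackets. Colour marks genes called higher (green), called lower (purple) or not called (grey), the black bar is the list median, the band spans the quartiles of all probe sets tested and the dashed line their median; histones and both ribosomal lists have medians to the right of the band and the organelle lists to its left.

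Factors that run translation showed no common pattern. Of 11 tested, 3 were called higher and 1 lower (27.3% and 9.09%, against 16.3% and 11.3% of all probe sets). The median of 0.08 turned to -0.05 without replicate 2. AT1G77840, listed as an initiation factor, had levels of 1.80, 1.80 and 1.49 in total RNA and 2.91, 3.03 and 2.99 on polysomes, a loading of 1.28 ± 0.16 (adjusted p = 9.9e-06). AT1G36730 was at 0.64 and AT5G54940 at 0.36, while AT5G19510, listed as an elongation factor, was at -0.39. The call of AT1G36730 ended without replicate 2, that of AT5G54940 without replicate 1 or 3 and that of AT5G19510 without replicate 1 or 2, with adjusted p up to 0.18.

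Histone genes, whose proteins package DNA, were all above 0 in mean loading. Of the 10 tested, 8 were called higher and 0 lower, with a median of 0.59, against 16.3% of all probe sets called higher. The H2B gene HTB2 had levels of 1.98, 2.21 and 2.53 in total RNA and 2.79, 3.15 and 3.12 on polysomes, a loading of 0.78 ± 0.14 (adjusted p = 4.9e-04). HTB1, another H2B gene, was at 0.70 ± 0.13, and AT2G37470 and AT3G53650 of the list were at 0.82 ± 0.13 and 1.43 ± 0.23. Polysomal arrays lay above total-RNA arrays without overlap for all 4 genes. These genes had the smallest adjusted p of the list, which favours such a gap, and its share over all probe sets was not counted. The list medians elsewhere were 0.65, 0.47 and 0.53 in light Col-0, dark dcp5-1 and light dcp5-1, and 3 genes were called with replicate numbers left out of the fit.

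The respiratory chain is built from nuclear and mitochondrial genes, and the medians of these lists lay on opposite sides of 0. Of 26 tested nuclear subunit and assembly genes, 12 were called higher and 2 lower, with a median of 0.37. The share called higher was 46.2%, against 16.3% of all probe sets and 36.1% of the brightest 10%. Their median level in total RNA was 3.92. Of 16 mitochondrial genes on the array, 10 passed the filter, 0 were called higher and 5 lower, with a median of -0.66. All 10 had a mean loading below 0, in every pair for 7 of them. The percentages called lower were 7.69% of the nuclear and 50% of the mitochondrial genes, beside 11.3% of all probe sets.

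On the nuclear side, AT3G10860 had levels of 4.69, 5.15 and 4.94 in total RNA and 5.94, 6.20 and 6.46 on polysomes, a loading of 1.27 ± 0.13 (adjusted p = 2.3e-06). CYTC-1, a cytochrome c that carries electrons between complexes III and IV, was at 5.04, 4.86 and 4.93 against 5.70, 5.71 and 6.30, a loading of 0.96 ± 0.14. Both had no overlap between fractions, and AT4G32470 and AT3G52730 of the list were at 1.15 and 0.89. The 2 nuclear genes called lower, AT1G51980 at -0.71 ± 0.12 and AT5G40810 at -0.67 ± 0.14, were named after their values were seen. Leaving out any replicate kept these calls.

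On the mitochondrial side, nad5, which encodes a membrane subunit of complex I, had levels of -1.32, -1.27 and -0.78 in total RNA and -4.40, -3.06 and -3.21 on polysomes, a loading of -2.43 ± 0.56 (adjusted p = 0.0030). cox2, a core subunit of cytochrome oxidase, was at -0.93, -0.88 and -0.66 against -2.68, -2.47 and -2.46, a loading of -1.72 ± 0.50 (adjusted p = 0.013). The fractions did not overlap for these genes, and cox2 was at -2.45, -3.03 and -3.30 in light Col-0, dark dcp5-1 and light dcp5-1. nad9 was at -2.26, ccb382, for cytochrome c maturation, at -0.80 and cox1, named after its values were seen, at -0.73. Without replicate 1 only 1 mitochondrial gene was called and without replicate 2 there were 2. The calls of cox1 and cox2 ended without any of the replicates, that of nad9 without 1 or 2 and that of ccb382 without 1, with adjusted p of 0.31 at most.

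Plastid-encoded transcripts mostly had lower levels on polysomes than in total RNA. The fractions differed in the control probe sets, and the part of this in the plastid and mitochondrial values was not tested. Of 69 genes on the array, 66 were tested, 31 were called lower (47.0%, against 11.3% of all probe sets) and 3 higher, with a median of -0.65 and pair medians of -0.87, -0.63 and -0.57. The difference was at least 2-fold for 22 of the lower calls. Loading was below 0 in all 3 pairs for 42 genes and above 0 in all 3 for 6. In the other groups the list median was -0.40 in light Col-0, -1.03 in dark dcp5-1 and -0.32 in light dcp5-1. With replicate numbers left out of the fit 8 genes were called lower and 1 higher.

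**Figure D3:**
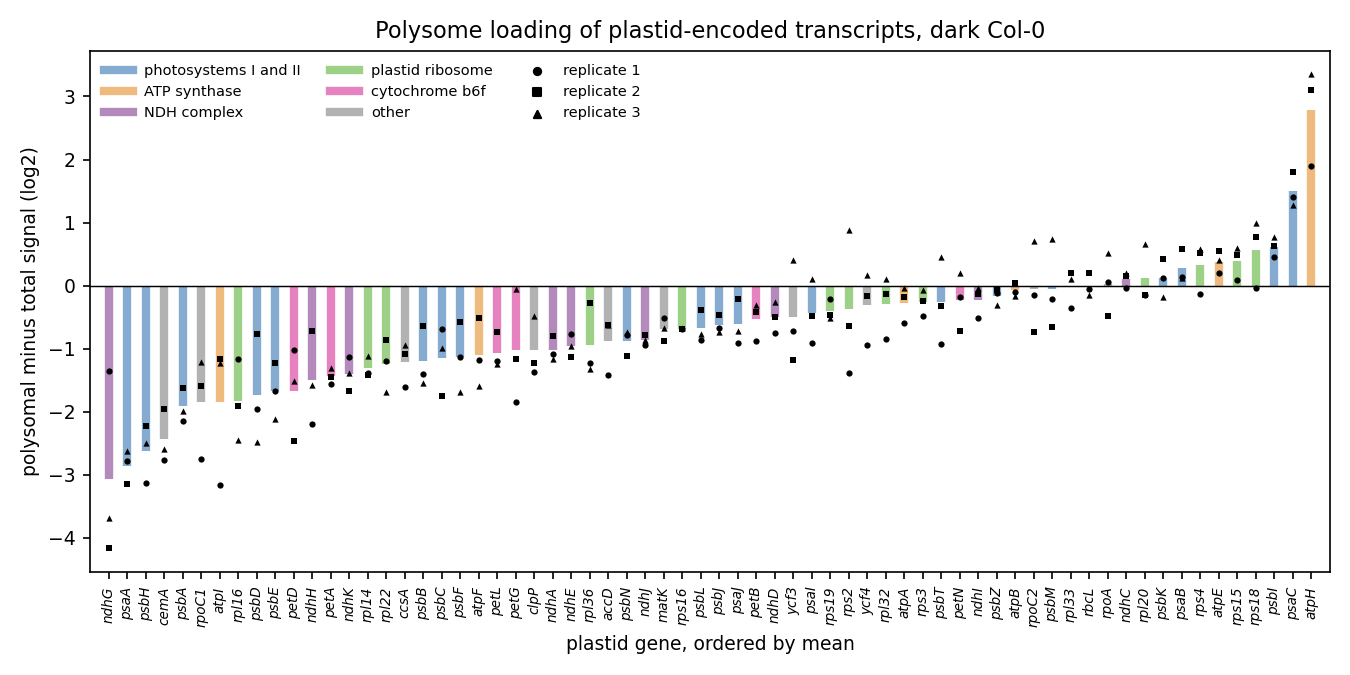
Loading (vertical axis, log2) of the 66 plastid-encoded genes tested in dark Col-0, in order of the mean of 3 pairs. Bars show the mean, coloured by the complex the gene belongs to, and symbols show each replicate pair; most genes lie below 0, from ndhG at -3.06 to atpH at 2.78.

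The reaction-centre genes of photosystem I gave unlike values. psaA, a reaction-centre protein of photosystem I, had levels of 1.00, 1.43 and 1.13 in total RNA and -1.78, -1.71 and -1.49 on polysomes. The loading of -2.85 ± 0.23 corresponds to a 7.22-fold depletion (adjusted p = 2.7e-07), and it was -3.63, -2.62 and -2.81 in light Col-0, dark dcp5-1 and light dcp5-1. psaB, singled out after its values were seen as the other reaction-centre protein, which follows psaA in the same operon, had levels of 5.85, 6.07 and 5.23 in total RNA and 5.99, 6.65 and 5.35 on polysomes. Its loading of 0.28 ± 0.16 was not called (adjusted p = 0.20), and its fractions overlapped. psaC, also chosen after its values were seen, encodes an iron-sulphur subunit of photosystem I and had levels of -1.78, -1.24 and -2.66 in total RNA and -0.37, 0.56 and -1.38 on polysomes. Its loading of 1.49 ± 0.69 was above 0 in every pair but was not called (adjusted p = 0.11). Of the 15 photosystem II genes 9 were called lower and 1 higher (60% and 6.67%, against 11.3% and 16.3% of all probe sets), with a median of -0.87.

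psbA, which encodes the D1 protein of photosystem II, had levels of 0.84, 0.92 and -0.50 in total RNA and -1.30, -0.69 and -2.49 on polysomes, a loading of -1.91 ± 0.23 (adjusted p = 8.6e-06). psbE, for a cytochrome b559 subunit, was at 4.57, 3.60 and 3.98 against 2.90, 2.38 and 1.86, a loading of -1.67 ± 0.16, and psbH was at -2.62 ± 0.32. In each of these genes every polysomal array lay below every total-RNA array. psbD, psbB, psbC and psbF, named after their values were seen, were at -1.74, -1.19, -1.15 and -1.13, and the call of psbC ended without replicate 2 (adjusted p = 0.080). psbI, a small photosystem II subunit, was called higher at 0.61 ± 0.18, but not without replicate 2 or 3.

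The plastid ATP synthase had the highest plastid value. atpH, the membrane ring subunit, had levels of 1.31, 1.91 and 0.73 in total RNA and 3.20, 5.01 and 4.08 on polysomes, a loading of 2.78 ± 0.52 or 6.88-fold (adjusted p = 5.5e-04). It was 2.69, 2.54 and 3.05 in light Col-0, dark dcp5-1 and light dcp5-1, and all polysomal arrays of dark Col-0 lay above all total-RNA arrays. atpE was called higher at 0.38 ± 0.12, a call that ended without replicate 2 or 3 and with quantile normalisation. Of the 6 ATP synthase genes 2 were called lower and 2 higher (33.3% each, against 11.3% and 16.3% of all probe sets), with a median of -0.17.

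The other plastid groups had medians from -1.04 to -0.06. The 6 genes of the cytochrome b6f complex, which passes electrons between the photosystems, all had a mean below 0, with a median of -1.04 and 3 called lower. Of 9 tested NDH genes 5 were called lower, with a median of -0.95. ndhG was at 0.10, -0.40 and -1.07 in total RNA and -1.25, -4.56 and -4.75 on polysomes, a loading of -3.06 ± 0.86 whose call ended without replicate 2 or 3, and it was at 0.24 in light dcp5-1. Plastid ribosomal protein genes had a median of -0.34, with pair medians of -0.58, -0.26 and 0.02 and 4 of 14 members above 0. Of these genes 4 were called lower, among them, named after their values were seen, rpl16 at -1.84 ± 0.24 and rpl14 at -1.30 ± 0.17. The 3 tested genes of the plastid RNA polymerase had a median of -0.06, with 1 above 0 and 1 called lower. The shares called lower were 50% for cytochrome b6f, 55.6% for NDH, 28.6% for ribosomal protein and 33.3% for polymerase genes. Over all probe sets the share was 11.3%. cemA, for an envelope membrane protein, was at -2.44 ± 0.24, whereas rbcL, also chosen after its values were seen, the large subunit of Rubisco, was at 0.00 ± 0.16, with levels of 3.52, 3.58 and 2.54 in total RNA and 3.46, 3.79 and 2.40 on polysomes.

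The median loading of tested nuclear genes for the photosynthetic apparatus lay on the other side of 0 from most plastid genes. Of 9 tested, 7 had a mean above 0 and 2 below. Among them 4 were called higher and 1 lower (44.4% and 11.1%, against 16.3% and 11.3% of all probe sets), with a median of 0.31. Their median level in total RNA was 4.53, and 36.1% of the brightest 10% of probe sets were called higher. The median loading was 0.12 without replicate 3 and 0.13 with quantile normalisation, which called 3 higher and 2 lower. PSAE-1, a photosystem I subunit, had levels of 5.30, 4.83 and 5.29 in total RNA and 5.96, 5.86 and 6.47 on polysomes, a loading of 0.96 ± 0.11 (adjusted p = 8.3e-06). The fractions did not overlap for it or for PSBW, a photosystem II subunit, at 4.64, 4.17 and 4.46 against 5.21, 5.00 and 5.25, with a loading of 0.73 ± 0.12. PSB27, a photosystem II assembly factor, was at 0.71 ± 0.13, higher on polysomes in every pair although the arrays overlap. ATPC1, named after its value was seen, was at 0.31, and the antenna gene LHCB4.2 at -0.38, both calls ending without single replicates (adjusted p up to 0.29). LHCB4.1 and LHCB4.3 were not called, at -0.22 ± 0.13 and 0.03 ± 0.14.

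In the Calvin cycle list AT1G56190 was called higher at 0.67 ± 0.12, and RCA, SBPASE and PRK, at 0.23 ± 0.11, 0.11 ± 0.14 and 0.16 ± 0.14, were not. Chlorophyll synthesis genes all had a mean below 0. Of 8 tested, 2 were called lower (25%, against 11.3%) and 0 higher, with a median of -0.29. CHLM, which methylates magnesium protoporphyrin, had levels of 4.91, 4.02 and 4.54 in total RNA and 4.21, 3.58 and 4.04 on polysomes, a loading of -0.54 ± 0.12 (adjusted p = 0.0015), and was lower in every pair. HEME2, a uroporphyrinogen decarboxylase, was at -0.48 ± 0.12, a call that ended without replicate 2 (adjusted p = 0.073).

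Genes of cell wall growth held several lower calls and lay on both sides of 0. Of 21 tested expansins and xyloglucan endotransglucosylases (XTH), enzymes and proteins that loosen the wall, 5 were called lower (23.8%, against 11.3%) and 0 higher, and 9 had a loading above 0. The median was -0.11, with pair medians of -0.14, -0.20 and 0.04, and ranged from -0.25 to -0.06 without single replicates. EXPB1 had levels of 1.94, 2.22 and 2.70 in total RNA and 0.75, 1.23 and 1.25 on polysomes, a loading of -1.21 ± 0.17 (adjusted p = 3.9e-05) with no overlap. EXPA4, EXPA9, XTH32 and XTH18 were at -0.61, -0.59, -0.62 and -0.57, the last named after its value was seen and not called without replicate 2. The class III peroxidase AT5G66390, at 4.40, 5.26 and 4.85 against 3.36, 3.95 and 3.53, was at -1.22 ± 0.12 (adjusted p = 1.9e-06). PRX52 was at -1.41 ± 0.52, lower in 2 of 3 pairs, and its call ended without replicate 1 or 2 (adjusted p up to 0.46).

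Among 8 tubulins and actins, TUA1 was called lower at -0.64 ± 0.15 and TUB1 higher at 0.34 ± 0.12, the latter not without any single replicate. Each is 12.5% of the list, against 11.3% of all probe sets called lower and 16.3% higher. In 37 UDP-glycosyltransferases, which attach sugars to small molecules, 4 were called higher and 5 lower (10.8% and 13.5%, against 16.3% and 11.3%), with a median of -0.03. GT72B1, which glucosylates xenobiotics and phenylpropanoids, had levels of 2.56, 3.35 and 3.04 in total RNA and 1.69, 1.84 and 1.63 on polysomes, a loading of -1.26 ± 0.14 (adjusted p = 5.6e-06). UGT73B1 was at -1.04 ± 0.16, and on the other side UGT88A1 was at 0.76 ± 0.12 and SGT at 0.70 ± 0.15. The remaining calls, named after their values were seen, were UGT84A3 at 0.90, UGT85A4 at 0.63, UGT74D1 at -0.74, UGT72E1 at -0.65 and UGT76B1 at -0.47, each lost without at least 1 replicate (adjusted p up to 0.49). Of 11 cytochrome P450 genes 1 (9.09%, against 16.3%), CYP71B28, was called higher at 0.49 and lost without any replicate.

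Transcription factors named by family had 7 higher and 3 lower calls among 42 tested (16.7% and 7.14%), shares near or below the 16.3% and 11.3% of all probe sets. The median of 0.02 changed sign without replicate 3, at -0.01, and with centring on the brighter 50% of probe sets, at -0.04, and was 0.14 without replicate 1. ILR3, a bHLH factor of iron deficiency responses, had levels of 3.73, 3.23 and 3.58 in total RNA and 4.38, 4.44 and 4.61 on polysomes, a loading of 0.96 ± 0.15 (adjusted p = 1.4e-04). The bHLH factor bHLH115 was at 3.07, 2.93 and 2.75 against 3.87, 3.76 and 3.92, a loading of 0.93 ± 0.12. Neither showed overlap, and ILR3 was at 1.02, 0.89 and 1.08 in light Col-0, dark dcp5-1 and light dcp5-1. bHLH34 was at 0.84 ± 0.21 and bHLH104, named after its value was seen, at 0.64 ± 0.16, and both were lost without 2 of the 3 replicates (adjusted p up to 0.092).

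bHLH121 was called lower at -0.48 ± 0.15, named after its value was seen and lost without any replicate. The other calls were AT1G06070, listed as a bZIP factor, at 0.74 ± 0.15, bZIP19 at 0.47, BZIP60 at 0.39, PHV at -0.59 and AGL65 at -1.41, and those after AT1G06070 were named after their values were seen and were lost without at least 1 replicate. Without replicate 2 or without replicate 3 the list had 4 higher and 0 lower calls. Of the 6 tested IAA genes, for repressors of auxin response, IAA18 and IAA29 were called lower at -0.58 ± 0.15 and -0.51 ± 0.16, both lost without single replicates. They make up 33.3% of the list, against 11.3% of all probe sets. The clock gene GI was at 0.56 ± 0.14 and FHL, which takes part in the nuclear import of phytochrome A, at -0.86 ± 0.23. FHL had levels of 1.53, 1.78 and 2.05 in total RNA and 1.15, 0.67 and 0.97 on polysomes, and its call ended without replicate 2 or 3 (adjusted p up to 0.087), as did that of GI without replicate 3 (adjusted p = 0.059).

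Genes known for an inhibitory upstream reading frame, which can hold ribosomes before the main coding region, were not low on polysomes. Of 13 listed 6 were on the array and tested. All 6 had a mean above 0, and 3 were called higher (50%, against 16.3%) and 0 lower, with a median of 0.37. AT5G15950 had levels of 0.63, 0.54 and 1.02 in total RNA and 1.43, 1.54 and 1.85 on polysomes, a loading of 0.88 ± 0.16 (adjusted p = 4.7e-04). PMEAMT, a phosphoethanolamine methyltransferase, was at 0.66 ± 0.14 and SAMDC, which supplies polyamine synthesis, at 0.44 ± 0.12, the last lost without replicate 2 or 3. Polysome counts do not show whether the ribosomes sat on the upstream or the main frame.

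Of 6 tested genes for storage and protection proteins of late embryogenesis, 3 were called higher (50%, against 16.3%), with a median of 0.47. With quantile normalisation 1 was called and the median was 0.29. COR47 had a loading of 0.42 ± 0.10, the dehydrin LTI30 0.51 ± 0.15 and the oleosin OLEO3 0.52 ± 0.16, and 0 were called without replicate 3. Of the 9 tested mRNA decay genes, AT3G58560 was called higher at 0.58 ± 0.13 and AT2G45810 lower at -0.69 ± 0.15 (11.1% each, against 16.3% and 11.3%). Proteasome genes had 2 calls each way among 8 (25% each, against 16.3% and 11.3%). These were AT2G32730 at 0.65, AT1G45000 at 0.40, AT4G24820 at -0.64 and AT1G79210 at -0.72, of which AT1G45000 and AT1G79210 were lost without single replicates. Among heat shock proteins AT5G51440 was lower at -0.55, lost without replicate 2 or 3, and Hsp70-2 was at 0.58 ± 0.23 (adjusted p = 0.074). The endoplasmic reticulum chaperone ATERDJ3B was higher at 0.55 and lost without replicate 3.

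The 12 nuclear genes with the highest loading among those called, with all pairs above 0, chosen for these values, lay between 1.83 and 2.99. Levels were dim for most of them, with 9 below the array median in total RNA. AT1G55680, with the smallest adjusted p of the 12, had levels of 1.25, 0.99 and 1.14 in total RNA and 3.04, 2.80 and 3.04 on polysomes, a loading of 1.83 ± 0.14 or 3.56-fold (adjusted p = 1.9e-07). AT3G59370 was at 0.95, 0.62 and 0.73 against 2.77, 2.61 and 2.87, a loading of 1.98 ± 0.20 (adjusted p = 2.0e-06). For AT5G60710 the levels of 0.11, -0.09 and 0.85 stood against 1.87, 2.40 and 2.18, a loading of 1.86 ± 0.23 (adjusted p = 9.7e-06).

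These 3 genes had no overlap between fractions, and their loading was 1.17 to 1.91 in the other 3 groups. AT4G12580, with levels of -2.91, -3.04 and -3.33 in total RNA and -1.69, -0.87 and -0.78 on polysomes, was at 1.98 ± 0.39 (adjusted p = 8.8e-04) and at 2.09, 1.69 and 1.94 elsewhere. AT3G52740, which encodes BIC1, an inhibitor of the blue-light receptor cryptochrome, was at -5.60, -2.92 and -3.83 against -2.64, -1.49 and -1.97. Its loading of 2.08 ± 0.33 (adjusted p = 1.3e-04) was 0.63, 0.16 and 0.88 in light Col-0, dark dcp5-1 and light dcp5-1. The RefSeq pseudogene AT1G27285 had the highest value, 2.99 ± 0.69, from total-RNA levels of -3.03, -6.41 and -5.05, and was at -0.55 in dark dcp5-1.

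The remaining genes of the 12 were RSU1, a transcribed pseudogene in the annotation, at 2.06, AT1G60970 at 2.05, the pseudogene AT5G10850 at 2.04, AT2G29800 at 1.95, AT1G65500 at 1.92 and AT5G07740 at 1.86. These 6 and AT1G27285 lost their call without at least 1 replicate, with adjusted p up to 0.37. Of all 12, 8 were above 0 in each of the other 3 groups. Taken group by group, 97.8% to 98.4% of all probe sets called higher were above 0.

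**Figure D4:**
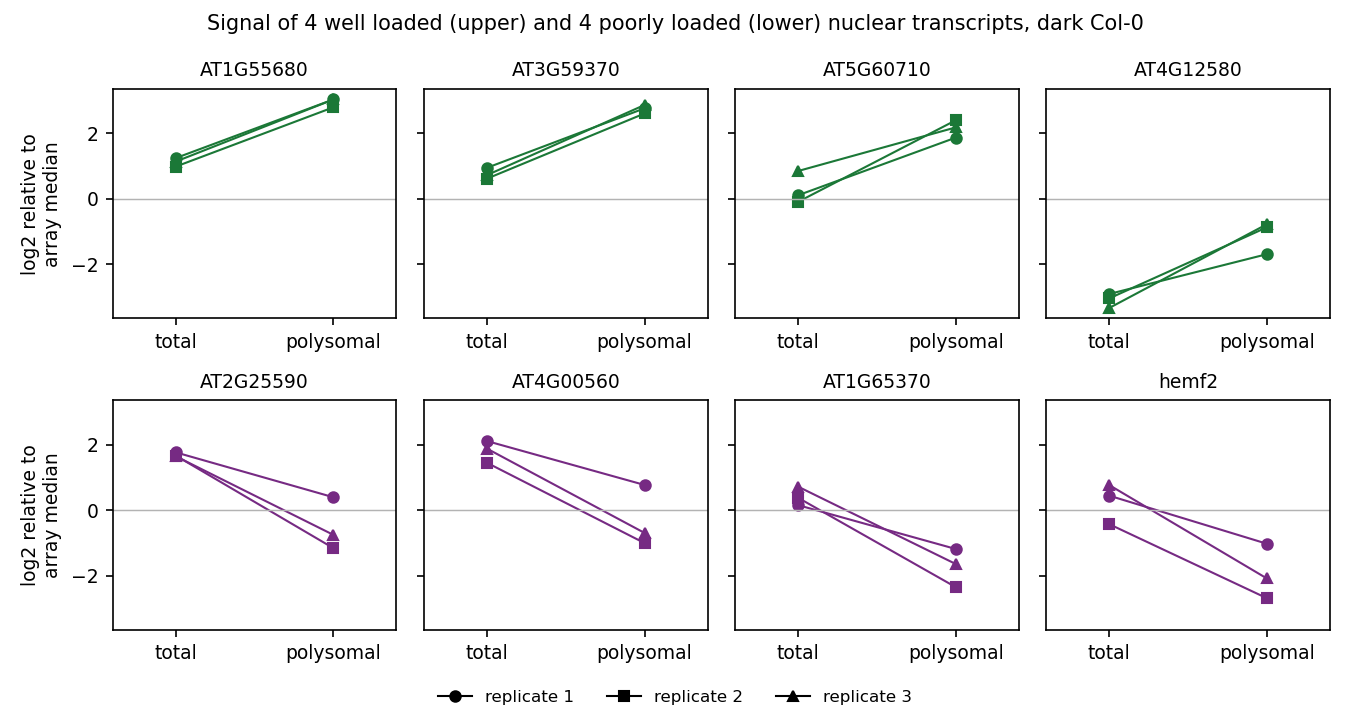
Level (vertical axis, log2 relative to the array median) on each total-RNA and polysomal array of dark Col-0, joined within replicate numbers, for 4 well loaded and 4 poorly loaded nuclear genes. In each panel all 3 lines run the same way, which the rule that chose these genes required. The polysomal arrays lie above the total-RNA arrays in the upper row and below them in the lower row.

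The 12 nuclear genes with the lowest loading, chosen for these values by the same rule, lay between -3.09 and -2.11. Most of these were also dim, with 8 below the array median in total RNA. In each of the other 3 groups, 10 of the 12 were below 0. Taken group by group, 95.1% to 98.4% of all probe sets called lower were below 0. AT2G25590 had levels of 1.76, 1.66 and 1.64 in total RNA and 0.39, -1.16 and -0.76 on polysomes, a loading of -2.20 ± 0.36 or 4.59-fold (adjusted p = 1.5e-04). AT4G00560 was at 2.11, 1.44 and 1.88 against 0.77, -1.01 and -0.70, a loading of -2.12 ± 0.34 (adjusted p = 1.3e-04). AT1G65370, at 0.15, 0.38 and 0.72 against -1.19, -2.35 and -1.64, was at -2.14 ± 0.25 (adjusted p = 8.5e-06). No polysomal array reached the level of any total-RNA array for these genes. The total-RNA levels were tight for AT2G25590, and the polysomal levels spread more.

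hemf2, a coproporphyrinogen oxidase of tetrapyrrole synthesis, had levels of 0.44, -0.43 and 0.77 in total RNA and -1.03, -2.69 and -2.09 on polysomes, a loading of -2.19 ± 0.48 (adjusted p = 0.0020) and of -1.36, -1.82 and -1.88 in the other groups. The thionin gene THI2.2 was at -1.62, -1.68 and -2.76 against -2.60, -5.28 and -4.52, a loading of -2.11 ± 0.48, but at -0.02 in light Col-0, 1.62 in dark dcp5-1 and -0.02 in light dcp5-1. AT3G27325 was at -3.01 ± 0.60, with pairs of -1.28, -5.36 and -2.39. Its loading was -1.83 without replicate 2 and -0.87, -0.60 and 0.03 in the other groups. AT5G55580 was at -2.12 ± 0.47. AT2G40640 at -3.09, AT4G00040 at -2.60, AT5G39840 at -2.18, AT3G25680 at -2.16 and the transcribed pseudogene AT1G62860 at -2.11 completed the 12. Those 5 and THI2.2 lost their call without replicate 2 or 3, with adjusted p up to 0.18.

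Genes that RefSeq does not class as protein coding, mostly pseudogenes, lay on both sides of 0. Of 128 tested, 5 were called higher and 9 lower, 3.91% and 7.03% against 16.3% and 11.3%, and 865 of the 993 on the array fell below the filter on dim signals. The median was 0.06, with pair medians of -0.20, -0.02 and 0.32, and changed sign to -0.14 without replicate 3 and to -0.24 over the 7 left when the lowest 50% of probe sets were left out. AT1G35612 had levels of 2.69, 2.31 and 2.01 in total RNA and 1.52, 0.13 and 0.05 on polysomes, a loading of -1.77 ± 0.26 (adjusted p = 5.9e-05). On the other side AT1G80020 was at 0.27, 0.16 and -0.33 against 1.04, 1.58 and 1.22, a loading of 1.25 ± 0.19 (adjusted p = 7.0e-05). Both kept apart without overlap, while AT1G20390 was at -1.45 ± 0.26 and AT5G04880 at -1.77 ± 0.36.

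The shortest nuclear genes had higher loading values than the others. Genomic length, from start to end of the RefSeq gene with introns, was known for the 9325 nuclear genes with a value. In the shortest 10%, 78 to 1118 bp, the median loading was 0.32, with 29.0% called higher and 3.11% lower. In the next 10%, up to 1487 bp, it was 0.17, with 23.3% and 7.94%, and from the fourth group of 10% on the medians lay between -0.04 and 0.04. Across genes Spearman's rho between length and loading was -0.15, and -0.14 over the 9202 genes left without the cytosolic ribosomal proteins, which are themselves short. The median length was 1613 bp for the 40S and 1444.5 bp for the 60S list, 1002 bp for histones and 2276 bp for all nuclear genes. Length moves with the ribosomal and histone lists, and its part in their loading was not tested. The fractions also differed in the 3′ to 5′ signal of the control transcripts. The part of that difference in the values by length was not tested.

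**Figure D5:**
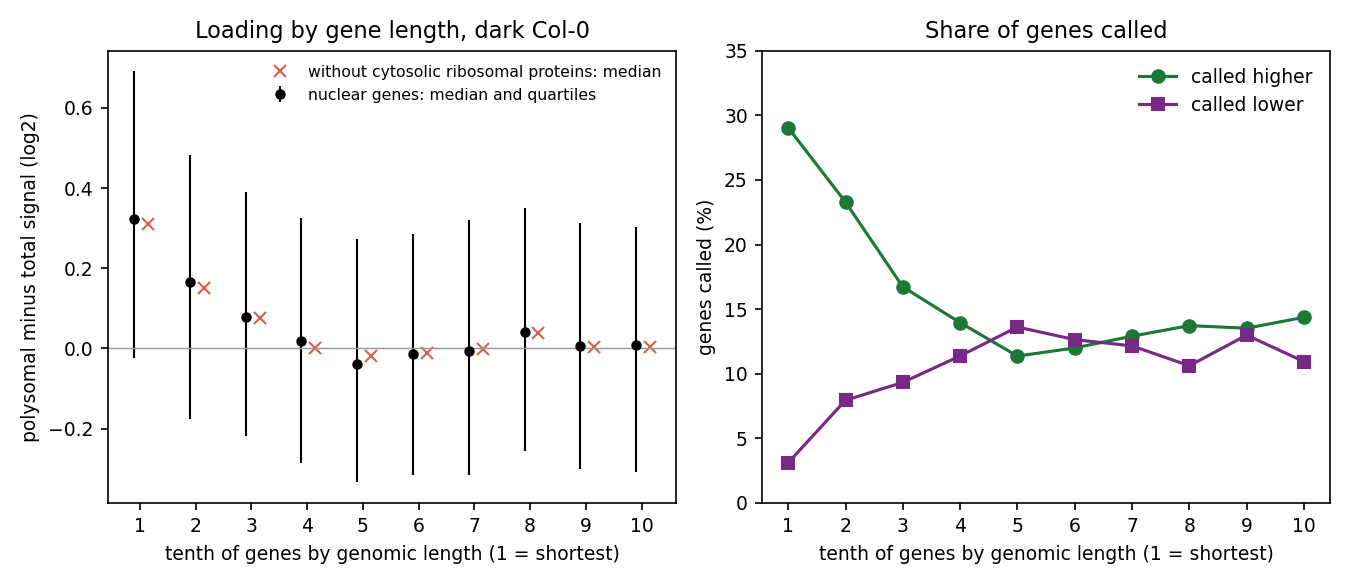
Left, median loading (log2) with quartiles for nuclear genes in 10 equal groups by genomic length, with crosses for the medians without cytosolic ribosomal protein genes; right, the percentage of genes called higher (green) and lower (purple) in the same groups. The shortest group has a median of 0.32 with 29.0% called higher, and groups from the fourth on stay near 0.

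Where a gene was measured by several probe sets, these often gave different loadings. Of 87 nuclear genes with several tested probe sets, the highest and lowest probe set differed by a median of 0.78, by at least 1 in 36 genes, and were called in opposite directions in 8. All probe sets were called in a single direction in 8 other genes. AT3G50590, singled out after its values were seen, had levels of 2.97, 2.96 and 3.06 in total RNA and 3.24, 3.35 and 3.49 on polysomes by its brighter probe set, a loading of 0.36 ± 0.12. Its dimmer probe set had -0.32, 0.17 and -0.50 against -3.48, -3.32 and -3.25, a loading of -3.14 ± 0.39. The gene values above come from the brighter probe set in such cases, and where on the transcript each probe set lies was not analysed here.

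Relative to the typical transcript, loading in dark Col-0 differed from that in light Col-0 for 14 probe sets. Centring had removed whole-array shifts with means of -2.22 in dark and -0.97 in light Col-0. A difference common to all transcripts was therefore not measured. Of the 17059 tested, 1 was higher in darkness (0.00586%) and 13 lower (0.0762%), and 1046 had an unadjusted p under 0.05. All 13 lower ones had a loading above 0 in light Col-0, and 12 had one below 0 in darkness, which their choice by this difference favours. The dcp5-1 arrays entered the fit only through the shared spread, the trend and the filter. In dcp5-1 the loading in darkness was also below that in light for all 13, and the share over all probe sets was not counted. The calls depended on the pairing: with replicate numbers left out of the fit 0 of the 14 remained, and with replicates 1, 2 and 3 left out in turn 2, 0 and 3 were called.

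The 8 with a single gene name included AT1G19600, whose dark pairs were at -0.69, -0.63 and -0.65 and whose light pairs were at 0.16, 0.30 and 0.29. The dark minus light difference was -0.90 ± 0.17 (adjusted p = 0.042). AT1G10660 had dark pairs of -1.17, -1.16 and -0.95 and light pairs of 0.17, 0.26 and -0.14, a difference of -1.19 ± 0.21 (adjusted p = 0.035). For AT4G27130 of the translation factor list the dark pairs of -0.12, 0.23 and 0.01 stood against 0.88, 0.73 and 1.26 in light, a difference of -0.92 ± 0.17 (adjusted p = 0.042). Dark and light pairs did not overlap for any of these genes, which were chosen for this difference.

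The exception in direction was AT5G26570, which RefSeq names PWD, a phosphoglucan, water dikinase of starch breakdown. Its dark pairs were at 0.00, -0.13 and -0.36 and its light pairs at -1.25, -1.86 and -1.11, a difference of 1.24 ± 0.23 (adjusted p = 0.039). AT4G24450, to which RefSeq gives the same symbol and which is named after its values were seen, had a loading of -1.24 ± 0.40 in dark Col-0 (adjusted p = 0.026), and its dark minus light difference of -0.92 ± 0.57 was not called. AT5G38520, AT1G19680, AT2G36930 and AT1G22690 were lower in darkness by -1.18, -1.20, -1.18 and -1.97. AT1G22690 had a loading of -1.33 ± 0.62 in dark Col-0 and of 0.54 ± 0.33 in dark dcp5-1 (SD, n = 3), a difference that was not called (adjusted p = 0.25).

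Between the genotypes in darkness, limma called 0 of 17059 probe sets (0%) for the loading in Col-0 minus that in dcp5-1, and 687 had an unadjusted p under 0.05. The shift removed by centring had a mean of -2.22 in dark Col-0 and -1.33 in dark dcp5-1. Only loading relative to the typical transcript was compared. Leaving out replicate 1 or 3 of dark Col-0 gave 3 and 1 calls. In dark dcp5-1 the list medians were 0.39 and 0.36 for the 40S and 60S subunits, 0.47 for histones, 0.31 for nuclear respiratory genes, -1.03 for plastid genes and -0.56 for mitochondrial genes. The median had the opposite sign in the 2 genotypes for IAA genes (-0.33 in Col-0 and 0.14 in dcp5-1), heat shock proteins (0.21 and -0.08), translation factors (0.08 and -0.11), proteasome genes (-0.05 and 0.07), plastid RNA polymerase genes (-0.06 and 0.08) and the 3 tested root markers (0.25 and -0.49). List medians were not tested between the genotypes.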

How the data were processed

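RNA of etiolated Arabidopsis seedlings was amplified, labelled and hybridised to ATH1 arrays, 24 in all, per the labels' protocols, and the signals were made with GCOS 1.4, per the submitters' processing notes. The deposited values are log2 signals, one per probe set, and no count of reads or depth applies: the number of arrays limits the precision. The probe-level steps and the scaling of each array are not given in the sources used here. Each array was centred on the median of its 22746 non-AFFX probe sets. Gene names came from the platform annotation, updated through RefSeq (TAIR10.1): 13513 probe sets had 1 gene, 503 several and 8730 none, and 13436 matched RefSeq. With several probe sets, the gene took the value of the brightest. The 5 symbols that RefSeq gives to several nuclear loci were replaced by locus names.

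Polysomal minus total differences were formed within replicate numbers, 12 in all, and fitted in limma 3.58.1 (R 4.3.3) with the 4 groups sharing 1 estimate of spread and a trend in the prior. The lowest 25% of probe sets by mean level were left out, and p-values were adjusted over 17059 (Benjamini-Hochberg, 0.05, two-sided). Errors of single genes are standard errors of the fit unless given as SD. Same-numbered fractions deviated together in all 12 pairs (r = 0.20 to 0.61). The series describes the replicates as biological. The fit was tested on simulated data.

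Members and lists were chosen with earlier results of these data known, and list membership by locus rests on general knowledge of Arabidopsis annotation. The rule for named genes took the 12 highest and 12 lowest called nuclear genes with all pairs on one side, the 3 highest and lowest called of each organelle, and from each list up to 4 members with the smallest adjusted p. The rule favours genes whose fractions do not overlap, and the share of such genes over all probe sets was not counted. Markers, and genes marked as named after their values were seen, fall outside the rule. Alternatives were other scalings, filters, pairings and priors, and leaving out each dark Col-0 replicate. Leaving out probe sets at an array's lowest value was added after seeing the data. Promoter motifs, protein features and the position of probe sets on their transcripts were not analysed here.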

Additional observations from a re-analysis of the deposited data

Results flagged for a closer look

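Loading differed between dark and light Col-0, by limma's test of the difference itself, for 8 genes with a single name. The dark minus light difference was 1.24 for AT5G26570, -1.18 for AT5G38520, -0.92 for AT4G27130, -1.19 for AT1G10660, -0.90 for AT1G19600, -1.20 for AT1G19680, -1.18 for AT2G36930 and -1.97 for AT1G22690 on the log2 scale. None of the 8 kept its call under every alternative run, with 3 to 5 of 10 or 11 keeping it.

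Control probe sets outside the comparison also carried a signal. The 12 probe sets named DapX, LysX, PheX and ThrX for poly-A spike RNA were averaged. They were higher on the polysomal than on the total-RNA arrays of dark Col-0 by 7.89 ± 2.30 (SD, n = 3) on the centred log2 scale. Other probe sets for the same spikes, not averaged, were higher by 6.05 to 9.46. In all 4 groups the average lay between 4.18 and 5.43 on polysomal arrays and between -5.01 and -1.27 on total-RNA arrays. The log2 ratio of 3′ to 5′ signal was higher on the polysomal arrays by 2.96 for actin, 1.30 for GAPDH and 0.88 for ubiquitin. In actin the ratio was 4.59 ± 0.27 on polysomal and 1.63 ± 0.08 on total-RNA arrays (SD, n = 3 each). The part of these differences in the gene values was not tested.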

How the results depend on the processing

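Against 4701 calls, 2775 higher and 1926 lower, the deposited values without centring gave 16955 calls, 1 higher and 16954 lower, since the whole-array shift then enters every probe set. With no replicate block, that is without the pairing of fractions by replicate number, there were 2108 calls, 1267 higher and 841 lower, and 62 of the 109 named called genes kept their call. Without single replicates of dark Col-0 the calls numbered 2453 to 3834, with 1463 to 2294 higher and 990 to 1540 lower. Quantile normalisation shared 4139 and centring on the brighter 50% of probe sets shared 4277 of the calls, with 0 in the opposite direction in any alternative set out here except the uncentred values, where this was not counted. The higher share of calls was 59.03%, and 51.2% and 50.1% under those scalings. For dark minus light, 14 calls became 14061 as deposited, 8 without the filter on dim probe sets, 23 with the lowest 50% left out, 0 with no replicate block, 0 with an additive replicate block, 0 without the trend, and 0 to 3 without single replicates. For Col-0 minus dcp5-1, 0 calls became 3345 as deposited and 0 to 3 without single replicates. Among uncalled genes, rbcL turned to -0.077 with quantile normalisation, -0.053 with centring on the brighter 50%, and ranged from -0.10 to 0.075 without single replicates. AT4G26010 ranged from -0.46 to 0.86 and LHCB4.3 from -0.048 to 0.13 without single replicates. PRK turned to -0.024 with quantile normalisation and LHCB4.3 to -0.021 with centring on the brighter 50%. The cause of these changes was not tested. In the dimmest 10% of probe sets 1.47% were called higher and 2.93% lower.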
